A study of Mus musculus with 12 samples.

Results

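The enzymes described here build the lipids of the myelin sheath. The group was defined by role, as 10 named genes of galactolipid, sulfatide and very-long-chain lipid synthesis (Sptlc2, Degs1, Elovl1, Elovl7, Cers2, Fa2h, Ugt8a, Gal3st1, Aspa and Enpp2). Of these, 9 had a probe set annotated to that gene alone, out of 18820 genes so measured, and each of the 9 had exactly 1 such probe set. Enpp2, which encodes autotaxin, was not analysed here. Expression was measured on 1 Affymetrix array per animal in the medial prefrontal cortex of adult mice. The animals of the PolyI:C group (n = 6) were offspring of C57BL/6 mothers given PolyI:C, a double-stranded RNA analogue used to mimic viral infection, at 5 mg/kg intravenously on gestation day 17. Those of the control group (n = 6) were offspring of mothers given saline intravenously on the same day. All 12 offspring were C57BL/6N, aged 12 weeks, and had been tested behaviourally before the tissue was taken. The comparison asks what prenatal immune activation leaves behind in adult cortical expression. Titles call the animals biological replicates but the labels used here give neither litter nor sex, so p-values reflect only the variation among the animals sampled, and littermates could be among them.

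Myelin is unusually rich in galactosylceramide and its sulfated form, sulfatide, whose acyl chains are very long and often hydroxylated. Their synthesis begins when serine is condensed with a fatty acid, passes through ceramide, and ends with addition of galactose and then sulfate. In brain the late steps are carried out mainly by oligodendrocytes, the cells that wrap axons, whereas the first steps are shared by all cells.

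None of the 9 measured enzymes passed the threshold used throughout, an adjusted p under 0.05 in limma with Benjamini-Hochberg adjustment over all 23099 annotated probe sets. That threshold was passed by 2.83% of all probe sets, 0.805% lower and 2.02% higher after PolyI:C. The differences farthest from 0 were those of Fa2h (-0.38), Ugt8a (-0.27), Aspa (-0.20) and Cers2 (-0.15) on the log2 scale, while Sptlc2, at the entry of the pathway, differed by 0.12. At an unadjusted limma p under 0.05, 5 of the 9 enzymes were lower and 1 was higher, against 19.1% of all probe sets, 7.33% lower and 11.7% higher. A difference below 0 was found in 8 of 9 enzymes and in 48.0% of all probe sets, and the median difference was -0.093 for the enzymes and 0.00303 for all probe sets. In 0 of the 9 enzymes were the groups free of overlap, against 2.37% of all probe sets. The split of all calls depended on scaling, with 467 higher and 186 lower as deposited, 239 and 285 after quantile normalization, and 298 and 232 after centring each array on its median. The direction of each of the 9 enzymes was the same under both scalings.

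**Figure D1:**
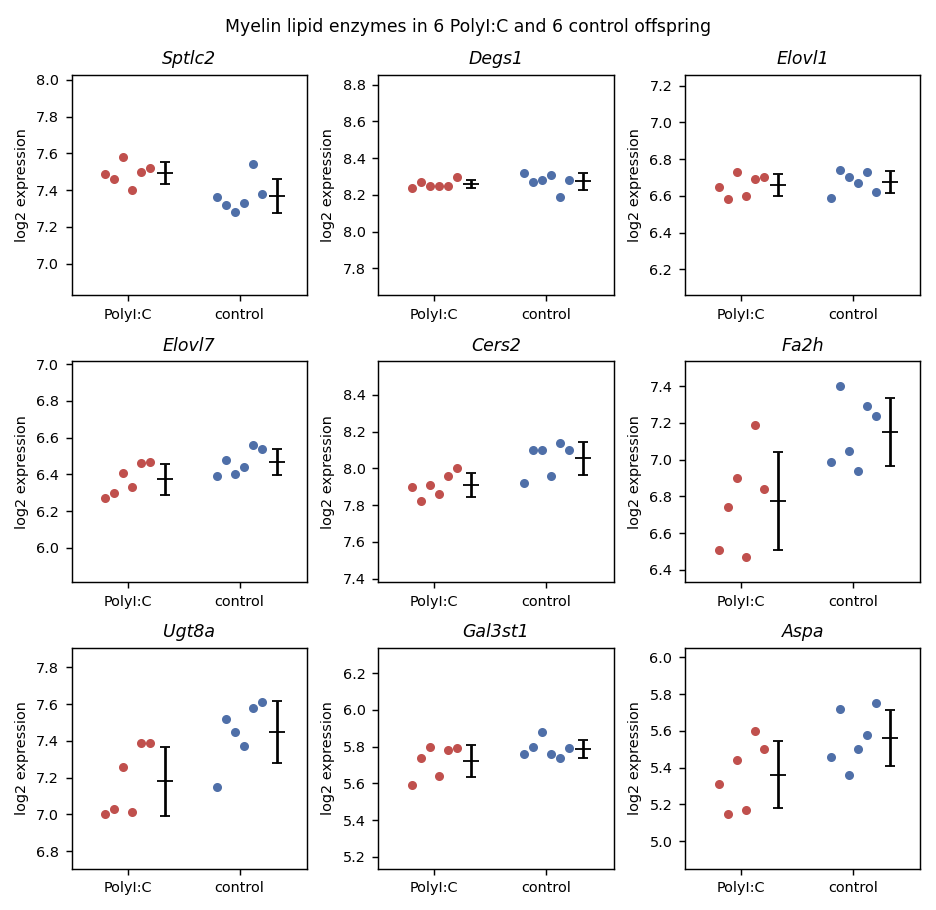
Log2 expression (vertical axis, 1.2 log2 units in every panel) of the 9 measured enzymes in 6 PolyI:C and 6 control offspring. Each point is 1 animal and the bars give the mean ± SD; Fa2h averaged 6.78 after PolyI:C and 7.15 in controls, and the groups overlapped in all 9 panels.

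RefSeq promoter windows (GRCm38.p6), reaching from 250 bases before to 50 bases after the start of a transcript, were found for 8 of the 10 genes. The 4 shown are those of Ugt8a, Aspa and Elovl7, which varied together among animals of a group as described further on, and of Sptlc2, the enzyme with a difference of opposite sign. The windows lie at chr3:125938603-125938902 (minus strand, Ugt8a), chr11:73324588-73324887 (minus strand, Aspa), chr13:108214154-108214453 (plus strand, Elovl7) and chr12:87388306-87388605 (minus strand, Sptlc2). Each is written 5′ to 3′ on the strand of the gene, and capitals mark every match, on either strand, to 7 short motifs, with overlapping matches merged into 1 run. The motifs were a pair of SOX cores, AACAAT as well as ACAAAG, the E-box written CAGCTG, the GC box written GGGCGG, the CCAAT box, the TATA box written TATAAA, and the sequence CTGGCAC, a core bound by MYRF.
Ugt8a: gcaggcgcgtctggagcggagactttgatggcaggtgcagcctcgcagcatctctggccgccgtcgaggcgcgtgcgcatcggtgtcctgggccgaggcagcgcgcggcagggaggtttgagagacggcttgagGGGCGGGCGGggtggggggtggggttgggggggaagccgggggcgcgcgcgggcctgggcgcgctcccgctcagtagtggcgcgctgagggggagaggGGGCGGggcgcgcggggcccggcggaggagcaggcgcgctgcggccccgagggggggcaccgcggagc
Aspa: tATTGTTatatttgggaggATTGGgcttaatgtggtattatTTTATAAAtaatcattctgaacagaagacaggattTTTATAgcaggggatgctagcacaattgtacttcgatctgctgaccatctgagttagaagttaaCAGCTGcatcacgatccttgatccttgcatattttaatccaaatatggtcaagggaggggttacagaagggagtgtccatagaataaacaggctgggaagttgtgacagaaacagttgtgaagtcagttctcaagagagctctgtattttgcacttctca
Elovl7: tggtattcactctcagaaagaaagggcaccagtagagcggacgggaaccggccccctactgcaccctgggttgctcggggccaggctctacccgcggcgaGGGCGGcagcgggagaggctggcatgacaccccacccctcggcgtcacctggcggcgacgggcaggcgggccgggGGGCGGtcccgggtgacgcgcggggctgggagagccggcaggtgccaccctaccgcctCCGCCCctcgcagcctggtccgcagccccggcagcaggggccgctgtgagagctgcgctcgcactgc
Sptlc2: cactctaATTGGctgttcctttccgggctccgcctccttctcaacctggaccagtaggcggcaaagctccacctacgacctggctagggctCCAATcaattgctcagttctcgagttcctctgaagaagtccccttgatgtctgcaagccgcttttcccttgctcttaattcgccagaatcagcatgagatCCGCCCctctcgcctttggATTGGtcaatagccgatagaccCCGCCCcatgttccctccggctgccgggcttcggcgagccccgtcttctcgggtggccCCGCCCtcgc

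The windows of Ugt8a and Elovl7 were rich in G and C (78.3% and 74.0%, against a median of 52.7% over all 32851 windows) and held 3 GC boxes each and no match to the other motifs. The window of Sptlc2 had 59.3% G and C, with 3 GC boxes and 3 CCAAT matches. The window of Aspa had 39.0% G and C and held 3 TATAAA matches, 1 AACAAT, 1 CAGCTG and 1 CCAAT. Over all windows GGGCGG was present in 35.7%, CCAAT in 37.4%, ACAAAG in 18.7%, CAGCTG in 16.3%, TATAAA in 13.6%, AACAAT in 10.7% and CTGGCAC in 5.01%. The 8 genes have 12 windows, of which 6 held GGGCGG, 7 held CCAAT, 3 held CAGCTG, and 1, that of Aspa, held AACAAT and TATAAA, while ACAAAG and CTGGCAC were found in 0. The Gal3st1 windows that start at 3983386 and 3983401 overlap and hold the same CCAAT match, which is counted in both. By gene, GGGCGG and CCAAT were each found in 5 of the 8. These matches describe letters in the windows and say nothing about which factors bind there.

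Sptlc2 encodes a subunit of serine palmitoyltransferase, the enzyme of the first and rate-setting step of sphingolipid synthesis. Its log2 values ran from 7.40 through a median of 7.49 to 7.58 in PolyI:C offspring, against 7.28, 7.34 and 7.54 in controls. All 6 PolyI:C animals lay above the control mean, and 5 of 6 controls lay below the lowest PolyI:C animal. Control 5, at 7.54, was the exception and fell inside the PolyI:C range. The means were 7.49 ± 0.06 and 7.37 ± 0.09 (SD, n = 6 each), a difference of 0.12 ± 0.042 (SE; 95% interval 0.035 to 0.21; limma adjusted p = 0.114). Without control 5 the difference was 0.16 and passed (limma adjusted p = 0.0276), and leaving out controls 5 and 6, whose striatal marker means were highest, it was 0.17 (limma adjusted p = 0.0312). Sptlc2 passed under only these 2 of 23 alternative settings (limma adjusted p up to 0.247).

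Degs1, the desaturase that turns dihydroceramide into ceramide, had a narrow range in both groups. It spanned 8.24 to 8.30 in PolyI:C offspring (median 8.25), against 8.19 to 8.32 in controls (median 8.28). The PolyI:C range lay wholly inside the control range. The difference was -0.015 ± 0.030 (SE), and its 95% interval, -0.078 to 0.048, holds only changes between 0.948-fold and 1.03-fold.

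Elovl1 and Elovl7 lengthen fatty acyl chains into the very-long-chain range. Elovl1 spanned 6.58 to 6.73 in PolyI:C offspring (median 6.67), against 6.59 to 6.74 in controls (median 6.68), with 3 of 6 PolyI:C animals on either side of the control mean. Its difference was -0.017 ± 0.037 (SE; 95% interval -0.094 to 0.061; limma adjusted p = 0.846). Elovl7 spanned 6.27 to 6.47 in PolyI:C offspring (median 6.37), against 6.39 to 6.56 in controls (median 6.46). The groups overlapped, with 3 PolyI:C animals below every control and 3 controls above every PolyI:C animal. The difference of Elovl7 was -0.093 ± 0.043 (SE; 95% interval -0.18 to -0.0026; limma adjusted p = 0.247).

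Cers2 is the ceramide synthase that accepts very-long-chain acyl groups and the main one of oligodendrocytes. Its values ran from 7.82 through 7.90 to 8.0 in PolyI:C offspring, against 7.92, 8.10 and 8.14 in controls. Every PolyI:C animal lay below the control mean, 4 of 6 lay below every control, and 4 of 6 controls lay above every PolyI:C animal. The means were 7.91 ± 0.06 and 8.06 ± 0.09 (SD, n = 6 each), a difference of -0.15 ± 0.043 (SE; 95% interval -0.24 to -0.057; limma adjusted p = 0.071). Without control 1, the lowest control at 7.92, Cers2 passed at -0.17 (limma adjusted p = 0.0471), as it did after quantile normalization (-0.18, limma adjusted p = 0.0343) and within the brighter probe sets (50th percentile and up) (-0.15, limma adjusted p = 0.0479). Cers2 passed under only these 3 of 23 alternative settings (limma adjusted p up to 0.201).

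Fa2h hydroxylates the fatty acids that go into myelin galactolipids, and it had the largest difference of the 9. Its values ran from 6.47 through 6.79 to 7.19 in PolyI:C offspring, against 6.94, 7.15 and 7.40 in controls. In 5 of 6 PolyI:C animals Fa2h lay below every control. PolyI:C 5, at 7.19, stood above the control mean of 7.15. The means were 6.78 ± 0.27 and 7.15 ± 0.18 (SD, n = 6 each), a difference of -0.38 ± 0.11 (SE; 95% interval -0.60 to -0.15; limma adjusted p = 0.0642). Without PolyI:C 5 the difference was -0.46 and passed (limma adjusted p = 0.0189), as it did with array weights (-0.39, limma adjusted p = 0.0433) and within the brighter probe sets (50th percentile and up) (limma adjusted p = 0.0477). With the replicate number as a block included, Fa2h passed under 4 of 23 alternative settings (limma adjusted p up to 0.171).

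Ugt8a encodes the galactosyltransferase that makes galactosylceramide, the step that commits ceramide to myelin galactolipid. Its values ran from 7.00 through 7.14 to 7.39 in PolyI:C offspring, against 7.15, 7.49 and 7.61 in controls. All 6 PolyI:C animals lay below the control mean, 3 of them below every control. The means were 7.18 ± 0.19 and 7.45 ± 0.17 (SD, n = 6 each), a difference of -0.27 ± 0.085 (SE; 95% interval -0.45 to -0.088; limma adjusted p = 0.0946). Control 1 was the lowest control here too, and without it the difference was -0.33 and passed (limma adjusted p = 0.0472). With the replicate number as a block included, Ugt8a passed under 2 of 23 alternative settings (limma adjusted p up to 0.262).

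Gal3st1, the sulfotransferase that turns galactosylceramide into sulfatide, spanned 5.59 to 5.80 in PolyI:C offspring (median 5.76), against 5.74 to 5.88 in controls (median 5.78). In 3 PolyI:C animals it lay below every control, and the other 3 sat inside the control range. Its difference was -0.064 ± 0.040 (SE; 95% interval -0.15 to 0.021; limma adjusted p = 0.404).

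Aspa encodes aspartoacylase, which splits N-acetylaspartate in oligodendrocytes and so releases acetate for lipid synthesis. Its values ran from 5.15 through 5.37 to 5.60 in PolyI:C offspring, against 5.36, 5.54 and 5.75 in controls. PolyI:C animals lay below the control mean in 5 of 6 cases, with PolyI:C 5 above it at 5.60. The means were 5.36 ± 0.18 and 5.56 ± 0.15 (SD, n = 6 each), a difference of -0.20 ± 0.079 (SE; 95% interval -0.37 to -0.034; limma adjusted p = 0.172).

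**Figure D2:**
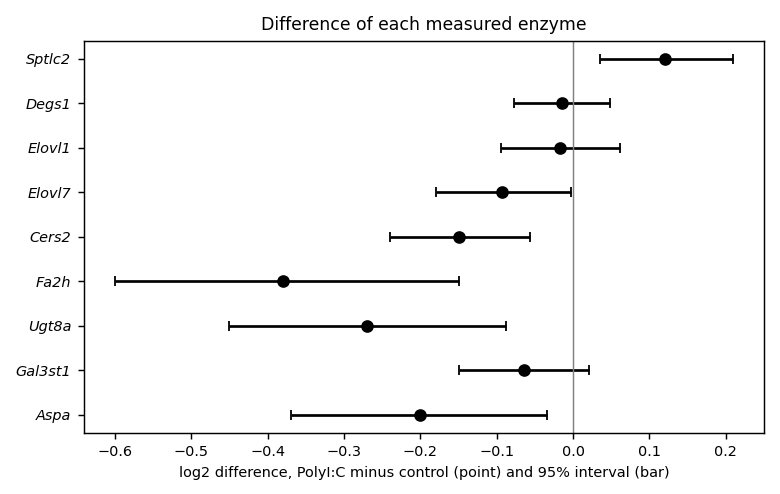
Log2 difference of each measured enzyme, PolyI:C minus control (horizontal axis), ordered by step of the pathway from Sptlc2 at the top to Gal3st1 and Aspa at the bottom. Points are limma estimates and bars unadjusted 95% intervals (n = 6 each); the bar of Sptlc2 (0.035 to 0.21) lies right of 0 and those of Fa2h (-0.60 to -0.15), Ugt8a, Aspa, Cers2 and Elovl7 lie left of it.

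Whether the enzymes changed unequally was tested on the log2 ratio of each pair within an array, which is unaffected by adding a constant to a whole array. All 36 pairs were compared with exact permutation tests over the 924 splits of the animals, two-sided, and adjusted over the 36. The change was unequal in 7 pairs, of which 6 set an enzyme against Sptlc2. These 6 ratios share the values of Sptlc2, whose own difference was 0.12 (limma adjusted p = 0.114), so they are not independent results. The pair comparisons were chosen after seeing the data. Relative to Sptlc2, Cers2 differed by -0.27 and Elovl7 by -0.22, with no overlap between groups in either ratio (exact permutation p = 0.0022, the smallest that 924 splits can give; adjusted p = 0.039). Also relative to Sptlc2, Fa2h differed by -0.50, Ugt8a by -0.39 and Elovl1 by -0.14 (exact permutation p = 0.0065, adjusted p = 0.039 for each), and Aspa by -0.32 (exact permutation p = 0.0087, adjusted p = 0.045). The seventh pair was Cers2 relative to Elovl1 (-0.13, exact permutation p = 0.0043, adjusted p = 0.039). The ratios to Sptlc2 of Gal3st1 and Degs1 did not pass (-0.19, exact permutation adjusted p = 0.058, and -0.14, adjusted p = 0.10). In no pair without Sptlc2 other than Cers2 and Elovl1 did the change differ past the threshold, and Fa2h relative to Ugt8a, both enzymes of galactolipid synthesis, differed by -0.11 (exact permutation p = 0.19, adjusted p = 0.24). The count of pairs depended on single animals. It was 0 without PolyI:C 1, PolyI:C 2 or PolyI:C 3, 2 without control 2, control 3, control 6, PolyI:C 4 or PolyI:C 6, and 16 without PolyI:C 5. Without controls 5 and 6 together it was 5. Each of the 7 pairs kept its direction and an unadjusted exact permutation p of at most 0.029 whichever animal was left out, after quantile normalization, and without controls 5 and 6.

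**Figure D3:**
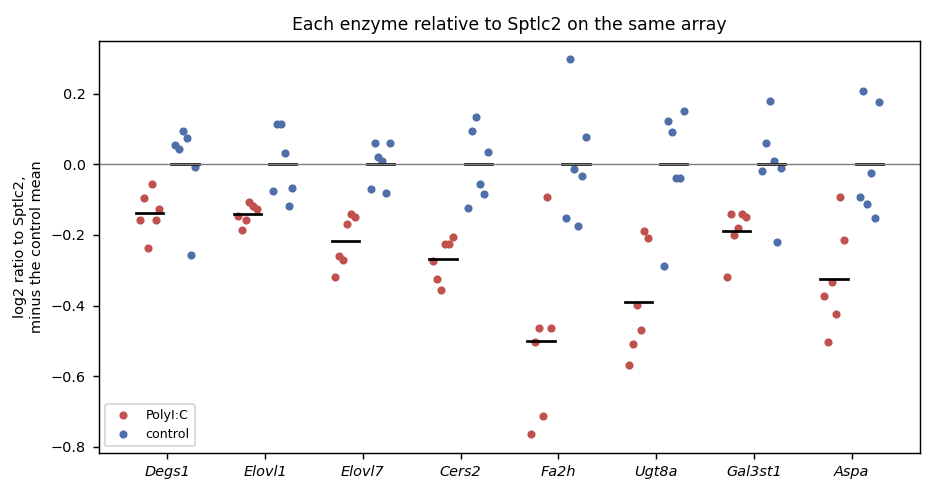
Log2 ratio of each enzyme to Sptlc2 on the same array, minus the control mean of that ratio (vertical axis), in PolyI:C (left of each pair) and control offspring (right). Points are animals and horizontal lines group means; the ratios of Cers2 and Elovl7 do not overlap between groups, with differences of -0.27 and -0.22.

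Among animals of a group, several enzymes varied together. With each group's mean subtracted, Ugt8a correlated with Elovl7 at r = 0.90, with Cers2 at 0.87, with Fa2h at 0.81 and with Aspa at 0.80 over the 12 arrays, and the median over all 36 pairs was 0.49. Degs1 correlated negatively with 7 of the other 8, down to r = -0.57 with Sptlc2. These values are descriptions, since all enzymes of an animal share 1 array and 1 dissection.

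The same animals differed in their oligodendrocyte markers. Of 23 measured markers of mature oligodendrocytes and myelin that are not members, 10 fell, 0 rose and 13 did not pass. Among all probe sets 0.805% were lower and 2.02% higher past the same threshold. The 23 markers had a median log2 difference of -0.30. Their mean log2 level per animal ranged from 6.99 to 7.37 in PolyI:C offspring and from 7.28 to 7.59 in controls. Cldn11, the claudin of myelin, fell by 0.44 (limma adjusted p = 0.0112), Mobp, a structural myelin protein, fell by 0.50 (limma adjusted p = 0.0121) and Ppp1r14a, a phosphatase inhibitor, fell by 0.23 (limma adjusted p = 0.021). The others that fell were Adamts4, Cnp, Myrf, Mal, Gjb1, Trf and Tspan2, at differences between -0.39 and -0.22. Trf (limma adjusted p = 0.0417) passed in 3 and Tspan2 (limma adjusted p = 0.0453) in 2 of the 12 fits that left out 1 animal, and both were lost over all 35556 probe sets, with trended and robust or no variance moderation, and without controls 5 and 6. The list was chosen with earlier results of these data known, so its direction is not independent evidence. The number of these markers called was 2 without PolyI:C 1, 3 without control 2 or control 3, and 5 without PolyI:C 4. In bulk tissue, fewer oligodendrocytes and less RNA per oligodendrocyte cannot be told apart.

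How closely each enzyme followed the mean of those 23 markers was examined on values with the group mean subtracted, over 12 animals, with 100000 permutations within groups and adjustment over the 9 relations. Enzymes and markers of an animal share 1 array and 1 dissection, and the relations were chosen after seeing the data. Their p-values are therefore not independent evidence, and how many other genes followed the marker mean as closely was not counted. Ugt8a followed it most closely (Pearson r = 0.89, permutation p = 0.001, adjusted 0.0078; Spearman rho = 0.90, permutation p = 0.00068, adjusted 0.0037), and r was 0.94 within the PolyI:C group and 0.84 within controls. Fa2h gave r = 0.82 (permutation p = 0.0036, adjusted 0.0078; rho = 0.82, permutation p = 0.0034, adjusted 0.010), with 0.87 within the PolyI:C group and 0.70 within controls. Aspa gave r = 0.81 (permutation p = 0.004, adjusted 0.0078; rho = 0.86, permutation p = 0.00083, adjusted 0.0037), with 0.94 and 0.58. Elovl1 gave r = 0.79 (permutation p = 0.0037, adjusted 0.0078; rho = 0.77, permutation p = 0.0084, adjusted 0.015), although its means hardly differed between groups. Cers2 gave r = 0.72 (permutation p = 0.0043, adjusted 0.0078; rho = 0.73, permutation p = 0.0076, adjusted 0.015) and Elovl7 r = 0.72 (permutation p = 0.019, adjusted 0.029; rho = 0.77, permutation p = 0.011, adjusted 0.016). Without the 2 animals farthest from the median marker level, r was 0.86 for Ugt8a, 0.78 for Fa2h, 0.83 for Aspa, 0.66 for Elovl1, 0.62 for Cers2 and 0.75 for Elovl7. Within the PolyI:C group and within controls, r was 0.83 and 0.77 for Elovl1, 0.81 and 0.73 for Cers2, and 0.84 and 0.53 for Elovl7. It was 0.76 and 0.20 for Gal3st1, 0.76 and 0.01 for Sptlc2, and 0.36 and -0.46 for Degs1. The relation did not pass for Gal3st1 (r = 0.61, permutation p = 0.075, adjusted 0.096; rho = 0.54, permutation p = 0.13, adjusted 0.14), Sptlc2 (r = 0.35, permutation p = 0.23, adjusted 0.26; rho = 0.52, permutation p = 0.095, adjusted 0.12) or Degs1 (r = -0.10, permutation p = 0.73, adjusted 0.73; rho = -0.01, permutation p = 0.97, adjusted 0.97).

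**Figure D4:**
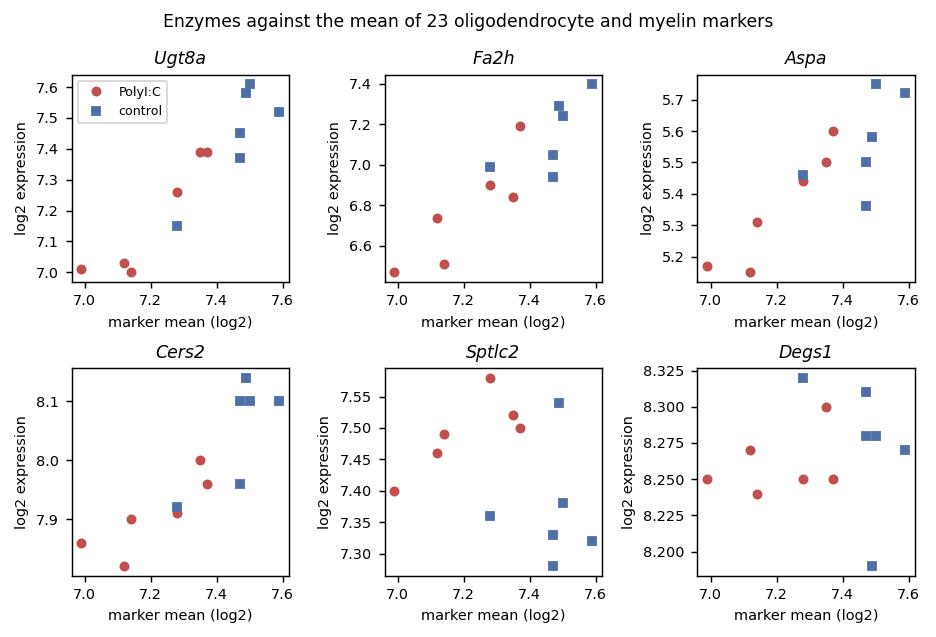
Log2 expression of 6 enzymes (vertical axes, scaled to each gene) against the mean log2 level of 23 oligodendrocyte and myelin markers (horizontal axis), 1 point per animal, circles PolyI:C and squares control. Ugt8a is higher in animals with a higher marker mean (r = 0.94 in PolyI:C, 0.84 in controls), and Degs1 gave r = -0.10 over both groups after subtraction of group means.

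Genes were also ranked by their likeness to the mean of the 9 enzymes, as Pearson r over the 12 animals after subtraction of group means, among 14106 genes above the 25th percentile of brightness. The 8 closest were Tmem88b and Anln (r = 0.954 each), Mag (0.935), Ermn (0.928), Tmem63a (0.912), Sox6 (0.895), Phf20 (0.886) and Tnfaip6 (0.882). Mag and Ermn are myelin genes and were among the 23 markers, and Sox6 is in the list of precursor markers. The ranking takes the highest of 14106 values and is a description without a p. None of the 8 passed between groups, Mag coming nearest at -0.33 ± 0.088 (SE; limma adjusted p = 0.052) and Phf20 differing by -0.0023 (limma adjusted p = 0.977).

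The other genes of lipid metabolism were taken from 8 lists with 104 measured genes, of which 2 fell, 1 rose and 101 did not pass. These 3 of 104 stand beside 2.83% of all probe sets (0.805% lower and 2.02% higher), so calls were about as frequent in the lists as over the whole array, and the called genes are given as single genes. That share was not matched for brightness. When only probe sets at or above the 50th percentile were fitted, 868 passed, against 653 over all. Elsewhere in ceramide synthesis 0 of 12 genes passed, with a median difference of 0.016. Sptlc1, the partner subunit of Sptlc2, did not overlap between groups: it spanned 6.90 to 7.03 in PolyI:C offspring, against 6.69 to 6.88 in controls (difference 0.12 ± 0.037 SE; limma adjusted p = 0.0774). The ceramide synthases Cers4 and Cers6, which prefer shorter acyl chains than Cers2, differed by 0.13 and 0.098 (limma adjusted p = 0.113 and 0.14). In the fatty acid elongation list 0 of 12 passed, with Elovl4 at 0.12 (limma adjusted p = 0.114) and Elovl5 at -0.087 (limma adjusted p = 0.179).

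Among 14 genes of lysophospholipid production and signalling, the pathway in which autotaxin works, 2 fell, 0 rose and 12 did not pass, with a median of -0.11. Lpar1, a lysophosphatidic acid receptor that oligodendrocytes express, spanned 6.00 to 6.18 in PolyI:C offspring, against 6.13 to 6.38 in controls, and differed by -0.22 ± 0.046 (SE; limma adjusted p = 0.0191). The call was lost without control 2, without PolyI:C 1, without controls 5 and 6 together and with no variance moderation (limma adjusted p up to 0.0745). Lpar2, a second receptor of the same ligand, spanned 4.64 to 4.82 in PolyI:C offspring, against 4.86 to 4.92 in controls, and its groups did not overlap (difference -0.13 ± 0.032 SE; limma adjusted p = 0.0471). Lpar2 passed without PolyI:C 2 and was lost without any other single animal (limma adjusted p 0.0359 to 0.103), and it passed under 3 of 10 other settings. Lpar4 and the oligodendrocyte phosphodiesterase Enpp6 differed by -0.13 and -0.16 and did not pass (limma adjusted p = 0.0755 and 0.0951). Both Lpar2 and Lpar4 were dim, with all values below the array medians (5.15 to 5.21). Lpar4, at 3.92 to 4.12 after PolyI:C and 4.09 to 4.23 in controls, lay near the 25th percentile of the arrays (3.92 to 3.96).

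Peroxisomes shorten very-long-chain fatty acids and make the ether lipids of myelin. Of 13 such genes 1 rose, 0 fell and 12 did not pass, with a median of 0.079 and 11 differences above 0. Far1, the reductase that supplies fatty alcohol for ether lipids, spanned 8.05 to 8.12 in PolyI:C offspring, against 7.77 to 7.99 in controls, without overlap. It rose by 0.19 ± 0.037 (SE; limma adjusted p = 0.0138), a call kept when any single animal was left out (limma adjusted p 0.00722 to 0.0403). Abcd2, a peroxisomal transporter of very-long-chain acyl groups, and Phyh, a hydroxylase of branched-chain fatty acids, differed by 0.14 and 0.12 (limma adjusted p = 0.057 and 0.0628).

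In the remaining 4 lists no gene passed. Glycosphingolipid and sphingomyelin synthesis (14 genes) had a median of 0.040, with the ganglioside sialyltransferase St3gal5 at 0.055 (limma adjusted p = 0.317). Breakdown of galactolipids and sphingolipids (16 genes) had a median of -0.0015, with acid ceramidase, Asah1, at 0.095 (limma adjusted p = 0.221). Fatty acid synthesis and desaturation (14 genes) had a median of -0.0066, with Srebf1, a transcription factor of lipid synthesis, at -0.16 and the desaturase relative Fads6 at -0.13 (limma adjusted p = 0.0592 and 0.0597). Handling of N-acetylaspartate, the substrate of Aspa (9 genes), had a median of 0.027, with the transporter Slc13a3 at -0.15 (limma adjusted p = 0.424).

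**Figure D5:**
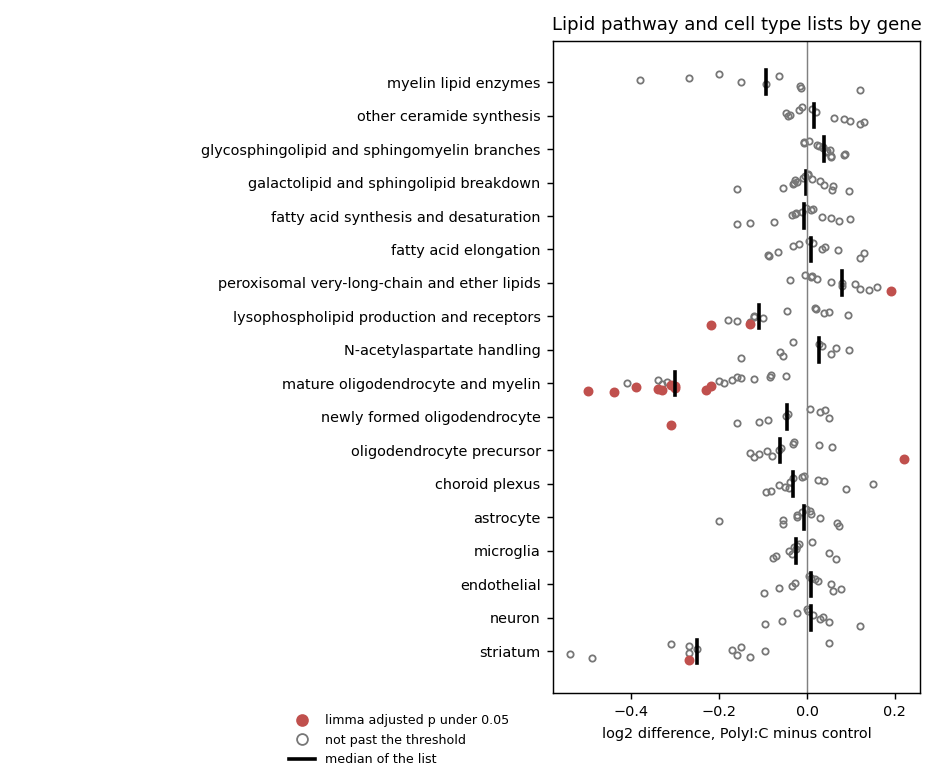
Log2 difference, PolyI:C minus control (horizontal axis), of every measured gene in the enzyme group, 8 lipid pathway lists and 9 cell type lists; filled points passed the limma adjusted threshold and black bars are list medians. The enzyme group has no filled point and a median of -0.093, and the mature oligodendrocyte list has 10 filled points and a median of -0.30.

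Markers of other cells were set beside these values. Of 10 markers of newly formed oligodendrocytes 1 fell (Bcas1, -0.31, limma adjusted p = 0.0129), with a median of -0.046 and 6 differences below 0. Of 12 precursor markers 1 rose (Pcdh15, 0.22, limma adjusted p = 0.0219), but 9 differences were below 0 and the median was -0.062. Over all probe sets 0.805% were called lower and 2.02% higher, and 48.0% had a difference below 0. The call of Pcdh15 was lost without control 2, PolyI:C 1, or controls 5 and 6 together, and with no variance moderation (limma adjusted p up to 0.0769), under which that of Bcas1 was lost too. Of 12 astrocyte, 11 microglial, 11 endothelial, 10 neuronal and 13 choroid plexus markers 0 passed, with medians between -0.033 and 0.0092, and the choroid plexus mean ranged from 4.17 to 4.23 after PolyI:C and from 4.14 to 4.24 in controls. Striatal markers had a median of -0.25, with 1 of 13 called (Ppp1r1b, -0.27, limma adjusted p = 0.0281). Their means were 6.56 to 6.69 after PolyI:C and 6.61 to 7.19 in controls. Striatum lies next to the dissected area, but the tissue that this signal came from was not tested. The call of Ppp1r1b was lost without control 2, control 6, PolyI:C 1, PolyI:C 3, PolyI:C 4, or controls 5 and 6 together, over all 35556 probe sets, and with no variance moderation (limma adjusted p up to 0.103). Controls 5 and 6 had the highest striatal means, 7.19 and 7.04, and without both Fa2h differed by -0.32, Ugt8a by -0.19, Cers2 by -0.11 and Aspa by -0.15 (limma adjusted p 0.167 to 0.371). Whether the arrays held striatal tissue, and whether it had any part in the differences of the enzymes, was not tested.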

How the data were processed

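RNA of the medial prefrontal cortex was hybridised to Affymetrix Mouse Gene 1.1 ST strips, 250 ng per animal, per the labels' protocols. The values deposited by the authors are on a log2 scale, judged from their range (2.02 to 12.29) and the array medians (5.15 to 5.21). The submitters' processing notes list RMA and Partek 6.6, with neither role nor order. If RMA made the values, differences of dim probe sets are compressed. Genome build and annotation used upstream: not given in the sources used here. The number of arrays limits the precision.

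Names came from GEO's platform annotation: of 35556 probe sets, 12457 carried no gene, 1881 several and 21218 just 1, of which 21185 matched RefSeq (GRCm38.p6). Each gene was read from its single-gene probe set with the highest mean. Groups were compared as PolyI:C minus control with limma 3.58.1 in R 4.3.3 (lmFit, eBayes, no covariates, two-sided) over 23099 annotated probe sets, and intervals are 95%. Permutation tests used scipy 1.17.1 and numpy 2.4.6 under Python 3.11.15, and plots matplotlib 3.10.9.

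The rule for named genes took the members, in each list every gene past the threshold and otherwise up to 3 with the lowest p, and the 8 genes most like the members. Lpar4, Enpp6, Abcd2 and Phyh, next by p in lists that hold called genes, were named in addition after their values were seen. The members and lists were chosen with earlier results of these data known. The pair comparisons, the relations to the marker mean and the motifs were chosen after seeing the data. On simulated data (23099 probe sets, 6 against 6, 200 shifted) the fit recovered 85% of log2 shifts of 0.25 and 100% of 0.5, with 5 false calls. The shifted probe sets were drawn at random and the noise was independent between probe sets. These rates therefore do not apply to single enzymes such as Fa2h (SE 0.11), Ugt8a (SE 0.085) or Aspa (SE 0.079).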

Additional observations from a re-analysis of the deposited data

How the results depend on the processing

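All 9 enzymes kept the sign of their difference under the 23 alternatives (22 for Gal3st1 and Aspa, which lie below the 50th percentile of brightness). The median difference of the enzymes, -0.093, ranged from -0.11 to -0.073 when 1 animal was left out and was -0.12 after quantile normalization. Enzymes lower past the threshold numbered 0 as reported (limma; 5 at an unadjusted p under 0.05), 2 with the replicate number as a block (Fa2h, adjusted p = 0.0185, and Ugt8a, 0.0189), 2 among probe sets at or above the 50th percentile, where fewer are tested (Fa2h and Cers2), 1 with array weights (Fa2h) and 1 after quantile normalization (Cers2). They numbered 0 to 2 when 1 animal was left out. Enzymes higher past it numbered 0, 0 to 1 when 1 animal was left out and 1 without controls 5 and 6 (Sptlc2). Same-numbered animals deviated from their group means with correlations of -0.09 to 0.11, and no animal correlated best with its own number, so the numbers were not taken as pairs; under the block 536 probe sets passed, against 653. That total was 414 when all 35556 probe sets were tested, 122 without variance moderation, and 230 (without control 2) to 818 (without PolyI:C 2) when 1 animal was left out. Pairs of enzymes with unequal change numbered 7, and 0 to 16 when 1 animal was left out. Of the 23 oligodendrocyte markers 10 passed, 3 over all probe sets, 0 without moderation and 2 to 13 when 1 animal was left out. Of the lysophospholipid genes 2 passed, 0 to 2 when 1 animal was left out, and 0 without moderation or without controls 5 and 6. Of the peroxisomal genes 1 passed, and 3 at or above the 50th percentile. Fatty acid synthesis genes numbered 0, and 2 after quantile normalization, after median centring or at or above the 50th percentile. Striatal markers numbered 1, 4 under the block, and 0 to 3 when 1 animal was left out. They numbered 0 over all probe sets and without moderation or controls 5 and 6. Why these counts changed between settings was not tested.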
